A study of Homo sapiens with 8 samples.

Results

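The glucocorticoid receptor gene NR3C1 and 6 genes known as its transcriptional targets, FKBP5, TSC22D3, DUSP1, SGK1, KLF9 and ERRFI1, were followed through 4 treatments of a breast cancer cell line. The 7 members were chosen by symbol, with earlier results of these data known, and all 7 were found among 23228 counted genes. Counts of members called are therefore a description of these genes. The glucocorticoid receptor is held in the cytoplasm by a chaperone complex built around HSP90, moves to the nucleus when it binds cortisol or a drug such as dexamethasone, and there binds DNA directly or alters the activity of other factors such as AP-1 and NF-kappaB. Its induced genes include feedback regulators of the receptor itself, dampeners of kinase signalling and inflammation, and transcription factors, while many cytokine and protease genes are repressed. Most of these targets are also induced by stress kinases, cAMP or growth factors, so a change in their RNA is not specific to the receptor.

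The cells were BT-549, an established triple negative breast cancer line with a mesenchymal phenotype, grown in medium with 10% fetal bovine serum, which itself carries steroids. They received vehicle (DMSO), the leukemia inhibitory factor receptor (LIFR) inhibitor EC359 at 100 nM, the histone deacetylase inhibitor vorinostat at 10 µM, or both drugs together (combination), each for 24 h, and no glucocorticoid was named among the treatments. Each of the 4 groups had 2 libraries, 8 in all, with 19069450 to 24759041 counts on genes per library. The study states in general that its in vitro assays used biological replicates. Whether the 2 libraries of a group came from separate cultures is not stated, so p-values measure the spread between these libraries, which may be technical, and all results come from 1 cell line.

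VIM (2056 to 9442 CPM, normalized counts per 1000000 counts on genes), FN1 (1879 to 4588) and SPARC (903 to 3460) were high in the 8 libraries. The other mesenchymal markers, ZEB1 (43.2 to 208) and CDH2 (22.7 to 39.5), were present at lower levels. ESR1, PGR, CDH1 and EPCAM stayed at or under 4.27 CPM. ERBB2 was present, between 12.0 and 102.0, with the high values in the vehicle and EC359 libraries. The 7 markers of blood, endothelial and liver cells summed to 0.254 to 4.21 CPM, with PTPRC, CD3E and PECAM1 at or under 0.708. The 2 EC359 libraries stood farther apart than those of the other groups, with an SD of 0.563 for their log2 difference over genes against 0.312 to 0.448. In bulk RNA, fewer cells of a kind and less RNA per cell cannot be told apart.

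The promoter sequences of the 4 targets called with vorinostat are shown first, because these genes moved together in the results below and their start regions differ. Each is the 250 bases before an annotated start, on the minus strand, 5′ to 3′, from RefSeq on GRCh38.p14. Capitals mark exact matches, on either strand, to a receptor half-site (AGAACA), a cAMP response element (TGACGTCA), an AP-1 site (TGANTCA), an E-box (CACGTG), a GC box (GGGCGG) or a TATA box (TATAAA), and neighbouring matches can run together. DUSP1 lies at chr5:172771196-172771445, SGK1 at chr6:134174867-134175116, ERRFI1 at chr1:8026310-8026559 and KLF9 at chr9:70414658-70414907. SGK1 has 3 annotated starts and the one shown is the farthest downstream. Counts per gene do not show which start was used.
DUSP1: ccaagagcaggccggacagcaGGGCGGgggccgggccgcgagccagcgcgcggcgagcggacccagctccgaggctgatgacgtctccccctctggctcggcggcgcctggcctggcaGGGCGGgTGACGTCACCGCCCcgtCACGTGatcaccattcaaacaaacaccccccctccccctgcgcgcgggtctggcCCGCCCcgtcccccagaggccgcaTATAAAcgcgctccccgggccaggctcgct
SGK1: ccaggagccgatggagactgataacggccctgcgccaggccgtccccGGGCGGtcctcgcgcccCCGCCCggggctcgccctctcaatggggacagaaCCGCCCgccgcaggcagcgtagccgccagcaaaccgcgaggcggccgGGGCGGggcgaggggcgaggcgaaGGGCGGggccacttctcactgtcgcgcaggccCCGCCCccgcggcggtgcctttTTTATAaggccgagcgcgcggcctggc
ERRFI1: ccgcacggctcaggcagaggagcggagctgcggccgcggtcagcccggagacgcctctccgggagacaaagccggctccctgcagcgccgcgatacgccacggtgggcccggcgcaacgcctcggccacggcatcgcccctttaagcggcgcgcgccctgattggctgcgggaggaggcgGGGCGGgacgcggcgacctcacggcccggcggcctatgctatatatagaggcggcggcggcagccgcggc
KLF9: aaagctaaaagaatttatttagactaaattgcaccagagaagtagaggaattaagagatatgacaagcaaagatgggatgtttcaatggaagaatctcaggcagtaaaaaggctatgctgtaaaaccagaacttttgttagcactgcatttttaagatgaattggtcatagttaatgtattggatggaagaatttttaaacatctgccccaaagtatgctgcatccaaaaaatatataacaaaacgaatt

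All 7 members had promoter windows in the RefSeq table, 19 windows in all of 300 bases each, from 250 before to 50 after the start. The DUSP1 window held 1 cAMP response element, 125 bases before the start, next to an E-box and between GC boxes, with a TATA box 30 bases before the start. Of 35116 windows over the genome, 1.85% held the cAMP response element, 7.26% the E-box, 45.0% the GC box and 11.5% the TATA box. The SGK1 window shown held 6 GC boxes and a TATA match on the reverse strand, the ERRFI1 window held 1 GC box, and the KLF9 window held none of the 6 motifs. In base composition, the KLF9 stretch was 32.4% G and C, against 74.4% in DUSP1, 76.0% in the SGK1 stretch shown and 75.2% in ERRFI1. The SGK1 stretches not shown were at 41.6% and 33.6%. The receptor half-site occurred in 1 of the 2 FKBP5 windows and 1 of the 3 SGK1 windows, not the one shown, and in 14.8% of all windows. The AP-1 site occurred in 1 of the 7 NR3C1 windows and in 7.71% of all windows. These matches are a description of letters within the windows, and receptor binding was not measured.

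To see how the receptor gene and its targets responded to each drug and to both, counts were compared between groups with edgeR's quasi-likelihood test over all 8 libraries, and levels are given as CPM scaled for library composition. A gene is called when its Benjamini-Hochberg adjusted p, over 13694 tested genes, was under 0.01 and its log2 fold change was above 1 or below -1, and it is said to rise or fall when the adjusted p alone was under 0.01. With EC359, 1 of 7 members was called higher (ERRFI1), beside 1.94% of all tested genes. With vorinostat, 4 were called higher (DUSP1, SGK1, KLF9 and ERRFI1), beside 16.8% of all genes. With the combination, 5 were called higher (the same 4 and TSC22D3), beside 19.5%. NR3C1 fell with the combination by less than the fold limit. By edgeR or DESeq2, 0 members were called lower in any of these comparisons. Of all tested genes, edgeR called 1.72% lower for EC359, 13.3% for vorinostat and 15.3% for both drugs. At an unadjusted p under 0.05, 1 member was lower in each. These comparisons share the 2 vehicle libraries.

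**Figure D1:**
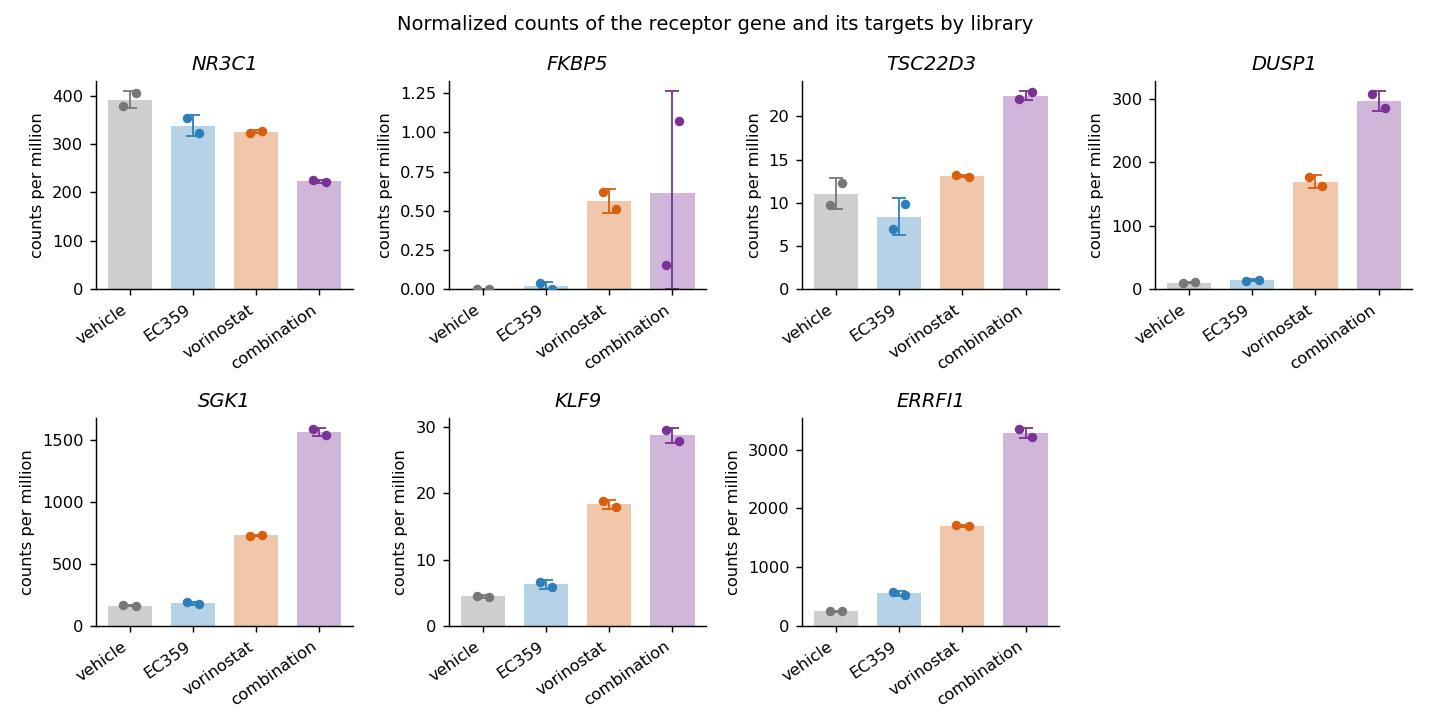
Normalized counts in CPM (linear axes from 0, one panel per gene) in the 4 groups; points are the 2 libraries, bars their mean and whiskers the SD, stopped at 0. DUSP1, SGK1, KLF9 and ERRFI1 step up from vehicle through vorinostat to the combination, NR3C1 is lowest in the combination, and FKBP5 is at most 1.07 in any library.

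NR3C1 encodes the receptor (ENSG00000113580 in the GENCODE annotation, chr5:142657496-142815077 on GRCh37, minus strand, 9 exons). It measured 379 and 404 CPM in vehicle, 353 and 323 with EC359, 323 and 328 with vorinostat, and 226 and 221 with the combination. Both combination libraries were below every other library, and the EC359 and vorinostat libraries overlapped. Against vehicle, the combination changed NR3C1 by -0.81 ± 0.09 on the log2 scale (SE, 0.570-fold, edgeR adjusted p = 2.9e-05). Either drug alone gave a smaller difference that missed the threshold, -0.21 for EC359 (95% interval -0.40 to -0.02, adjusted p = 0.12) and -0.27 for vorinostat (-0.46 to -0.08, adjusted p = 0.020). From vorinostat to the combination NR3C1 fell by 0.54 ± 0.08 (adjusted p = 0.0020). The extra fall beyond the sum of both drugs, -0.33 ± 0.12 on the log2 scale, did not pass the interaction test (adjusted p = 0.14).

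FKBP5 encodes an HSP90 co-chaperone that lowers the receptor's affinity for hormone, and is among the most widely used readouts of receptor activity (ENSG00000096060, chr6:35541362-35696360, 11 exons). It was nearly absent from these cells, with 0 counts in both vehicle libraries, 1 and 0 with EC359, 12 and 12 with vorinostat, and 3 and 21 with the combination. Against a floor of 3 counts over the vehicle group, FKBP5 was at least 7.97-fold higher with vorinostat and at least 8.23-fold higher with the combination, where a single library held most of the counts. Neither passed the edgeR test (adjusted p = 0.014 and 0.012). Over the alternative settings, the adjusted p ran from 3.0e-04 to 0.061 for vorinostat and from 0.0028 to 0.088 for the combination. FKBP5 entered the test only through the vorinostat and combination libraries, and the largest value, 1.07 CPM, was small beside those of the other members.

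TSC22D3 encodes GILZ, the glucocorticoid-induced leucine zipper, which binds and restrains NF-kappaB and AP-1 (ENSG00000157514, chrX:106956451-107020572). Its values were 9.77 and 12.3 CPM in vehicle, 6.93 and 9.89 with EC359, 13.2 and 13.0 with vorinostat, and 22.0 and 22.8 with the combination. The combination libraries stood above all others, and the EC359 and vehicle libraries overlapped. The combination raised TSC22D3 by 1.02 ± 0.19 on the log2 scale against vehicle (2.03-fold, adjusted p = 0.0011) and by 1.42 ± 0.19 against EC359 (adjusted p = 1.6e-04). Neither drug alone passed the test, with a log2 difference of -0.40 for EC359 (95% interval -0.84 to 0.04) and 0.25 for vorinostat (-0.18 to 0.68). The interaction, the excess of the combination over both single effects, was 1.17 ± 0.27 (adjusted p = 0.035), short of the threshold. Close to both limits, this call against vehicle was lost in several settings. The adjusted p missed the threshold without vehicle replicate 1 (0.85, adjusted p = 0.015) and without either combination library (1.00 and 0.94, adjusted p = 0.011 and 0.013). The adjusted p passed but the fold fell short of the limit without either vorinostat library (0.97 in both), with total counts (0.94), with all counted genes kept (0.98) and with only the 4 libraries compared (0.99). An exon of TSC22D3 overlaps NCBP2L on the other strand in the annotation, and an exon of DUSP1 overlaps an antisense transcript (ENSG00000253736). Whether counting used strand is not given in the sources used here, so reads of such partners cannot be told apart.

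DUSP1 encodes a nuclear phosphatase that switches off the MAP kinases p38 and JNK and is a main anti-inflammatory target of the receptor (ENSG00000120129, chr5:172195099-172198198, 4 exons). It had the largest fold change of the 6 members with counts in every group. The values were 9.72 and 11.8 CPM in vehicle, 13.9 and 15.3 with EC359, 177 and 162 with vorinostat, and 308 and 286 with the combination. The 4 groups did not overlap in any pair. DUSP1 rose by 3.98 ± 0.13 on the log2 scale with vorinostat (15.7-fold, adjusted p = 1.3e-07) and by 4.78 ± 0.13 with the combination (27.5-fold, adjusted p = 2.8e-08). The difference of 0.44 for EC359 alone missed the threshold (95% interval 0.15 to 0.72, adjusted p = 0.045).

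SGK1 encodes a serum- and glucocorticoid-regulated kinase that acts on ion channels and cell survival (ENSG00000118515, chr6:134490386-134639250, 14 exons). It measured 168 and 161 CPM in vehicle, 192 and 175 with EC359, 730 and 735 with vorinostat, and 1589 and 1540 with the combination. Vorinostat raised SGK1 4.46-fold, or 2.16 ± 0.08 on the log2 scale (adjusted p = 2.2e-07), and the combination raised it 9.52-fold, or 3.25 ± 0.09 (adjusted p = 2.6e-08). EC359 alone gave 0.16 (95% interval -0.03 to 0.34, adjusted p = 0.22), so any rise larger than 0.34 on the log2 scale lies outside that interval.

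KLF9 encodes a Krüppel-like transcription factor that relays glucocorticoid and thyroid hormone signals (ENSG00000119138, chr9:72999520-73029573, 2 exons). It was low in vehicle, at 4.58 and 4.34 CPM, and read 6.72 and 5.83 with EC359, 18.9 and 17.9 with vorinostat, and 29.6 and 27.9 with the combination. No pair of groups overlapped. KLF9 rose 4.12-fold with vorinostat (2.04 ± 0.15 on the log2 scale, adjusted p = 3.8e-06) and 6.44-fold with the combination (2.69 ± 0.15, adjusted p = 5.9e-07). The EC359 difference was 0.50 (95% interval 0.15 to 0.84, adjusted p = 0.057).

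ERRFI1 encodes MIG6, a feedback inhibitor that binds the kinase domain of the EGF receptor (ENSG00000116285, chr1:8064464-8086369, 4 exons). It was the only member to pass the test with EC359 alone. The values were 262 and 250 CPM in vehicle, 579 and 530 with EC359, 1717 and 1695 with vorinostat, and 3348 and 3219 with the combination. Each group stood clear of the next. ERRFI1 rose 2.17-fold with EC359 (1.12 ± 0.08 on the log2 scale, adjusted p = 2.8e-05), 6.66-fold with vorinostat (2.74 ± 0.08, adjusted p = 9.3e-08) and 12.8-fold with the combination (3.68 ± 0.09, adjusted p = 1.3e-08).

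**Figure D2:**
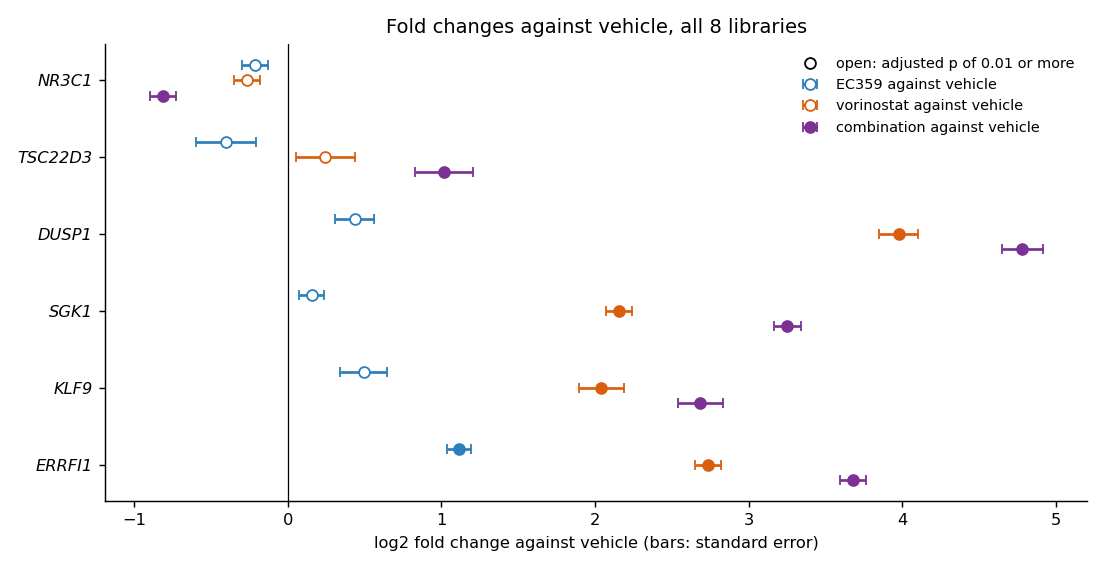
Log2 fold change against vehicle (horizontal axis, with standard errors) of the 6 members with counts in every group, for EC359, vorinostat and the combination; filled points passed an adjusted p of 0.01 and open points did not. NR3C1 lies left of 0 in each comparison, DUSP1 reaches 4.78 with the combination, and ERRFI1 is the only filled EC359 point.

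In order of level, ERRFI1 rose at every step from vehicle through EC359 and vorinostat to the combination, and vorinostat exceeded EC359 by 1.62 ± 0.08 (adjusted p = 4.1e-07). DUSP1, SGK1 and KLF9 had the same order, with vehicle and EC359 not separated by the test. In all, 4 members were called higher in vorinostat than in EC359, beside 19.0% of all genes, and 5 were called higher in the combination than in EC359, beside 19.8%. For TSC22D3 no neighbours in the order EC359, vehicle, vorinostat, combination passed the test, although the combination did differ from vehicle. For NR3C1 the only neighbours that passed were vorinostat and the combination.

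Levels of different genes were compared per kilobase of the canonical transcript. In vehicle, ERRFI1 stood at 82.6 ± 2.6 CPM per kilobase (SD, n = 2), followed by NR3C1 at 57.8 ± 2.6 and SGK1 at 50.6 ± 1.5. DUSP1 at 5.35 ± 0.74 and TSC22D3 at 4.87 ± 0.80 did not differ beyond their spread, and KLF9 was at 0.858 ± 0.032. With the combination the order became ERRFI1 (1060.3 ± 29.4), SGK1 (482 ± 10.6), DUSP1 (147 ± 7.9), NR3C1 (32.9 ± 0.5), TSC22D3 (9.87 ± 0.24) and KLF9 (5.53 ± 0.22). FKBP5 was listed at 0 in vehicle and at 0.163 ± 0.173 in the combination. The receptor transcript thus moved from the second to the fourth place in level among these genes.

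To ask what EC359 added in the presence of vorinostat, the combination was compared with vorinostat alone. Of the 7 members, 1 was called higher (SGK1), beside 3.37% of all genes, and by the adjusted p alone 4 rose (DUSP1, SGK1, KLF9 and ERRFI1), beside 8.45%, and 1 fell (NR3C1), beside 5.26%. SGK1 rose by 1.10 ± 0.08 on the log2 scale (2.14-fold, adjusted p = 3.1e-05) and ERRFI1 by 0.94 ± 0.08 (1.93-fold, adjusted p = 6.1e-05). DUSP1 rose by 0.81 ± 0.11 (adjusted p = 0.0011) and KLF9 by 0.65 ± 0.13 (adjusted p = 0.0073). TSC22D3 was 0.77 ± 0.19 higher without passing the threshold (adjusted p = 0.015). It did pass with DESeq2 (0.74, adjusted p = 0.0051) and with only the 4 libraries compared (0.77, adjusted p = 3.9e-04). When any 1 of these 4 libraries was left out, NR3C1 (-0.60 to -0.57, adjusted p = 0.017 to 0.026), DUSP1 (0.71 to 0.83, adjusted p = 0.012 to 0.030) and KLF9 (0.57 to 0.64, adjusted p = 0.038 to 0.10) kept their direction and missed the threshold, as did KLF9 without either vehicle library (0.65, adjusted p = 0.0183 and 0.0185). The adjusted p of SGK1 and ERRFI1 stayed under 0.01 without any 1 of the 8 libraries.

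**Figure D3:**
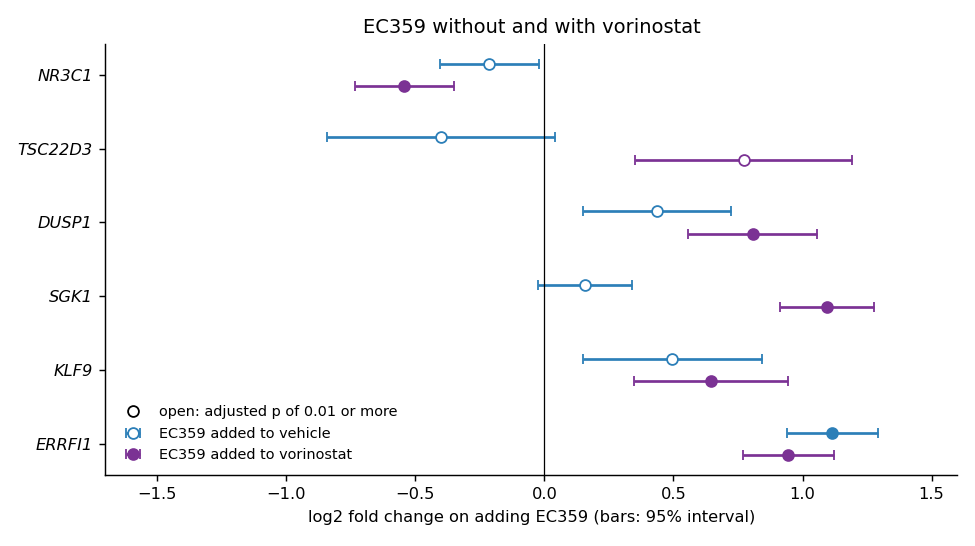
Log2 fold change on adding EC359 (horizontal axis, with 95% intervals) to vehicle and to vorinostat for 6 members; filled points passed an adjusted p of 0.01. SGK1 moves from 0.16 without vorinostat to 1.10 with it, while ERRFI1 lies near 1 in both.

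The interaction term tests whether the effect of EC359 differed with vorinostat present, and it was passed by 1 of 7 members (SGK1), beside 1.62% of all genes that lay above the sum of the drugs. The EC359 effect on SGK1 was larger by 0.94 ± 0.11 on the log2 scale with vorinostat than without it (1.92-fold, adjusted p = 0.0021). This call was lost when either vehicle, vorinostat or combination library was left out, with values from 0.86 to 0.97 and adjusted p from 0.017 to 0.037. For ERRFI1, whose EC359 effect was the largest of the members, the interaction was -0.17 (95% interval -0.42 to 0.08). For DUSP1 it was 0.37 (-0.01 to 0.75) and for KLF9 0.15 (-0.31 to 0.61), none past the threshold.

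The genes with patterns closest to each member were found by the root mean square difference of log2 CPM over the 8 libraries after centring each gene, among 9970 genes of sufficient level. The closest to NR3C1 were DECR1 (0.056) and DBNL (0.059), and to TSC22D3 ATG16L1 (0.13) and ZNF417 (0.13). DUSP1 lay closest to ABTB2 (0.17) and RGS2 (0.23), a regulator of G protein signalling that stands below among the other glucocorticoid-induced genes. SGK1 lay closest to SNAPC1 (0.092) and BAIAP2 (0.14), KLF9 to PLOD2 (0.061) and KLHL28 (0.097), and ERRFI1 to SMOX (0.10) and PTP4A1 (0.13). For FKBP5, at its few counts, the closest were MPV17L2 (0.50) and TUBA4A (0.51).

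The chaperones and transport factors that fold and carry the receptor were all tested. With EC359 0 of 18 were called by edgeR or by DESeq2, beside 1.94% of all genes called higher and 1.72% lower by edgeR. At an unadjusted p under 0.05, 2 were higher and 2 lower. With vorinostat 5 were called higher, beside 16.8% of all genes, and 1 lower, beside 13.3%, and their median log2 change was -0.04 against 0.03 over all tested genes. HSP90AA1, the inducible HSP90, measured 4150 and 4113 CPM in vehicle and 6389 and 6444 with vorinostat, a rise of 0.64 ± 0.09 on the log2 scale (adjusted p = 1.7e-04) that was under the fold limit. HSP90AB1, the constitutive form, and FKBP4, the co-chaperone that favours nuclear transport, did not pass the test (0.13, adjusted p = 0.31, and -0.21, adjusted p = 0.045). The heat-shock genes HSPA1B (2.44) and HSPA1A (2.19) rose, though these near-identical copies may share reads, and so did IPO13 (1.82), an importin that carries the receptor into the nucleus. HSPA8, the constitutive HSP70, fell by 1.08 (adjusted p = 3.8e-04).

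Of 18 coregulators, 16 were tested, and with vorinostat 1 was called higher, beside 16.8% of all genes, and 4 lower, beside 13.3%, with a median log2 change of -0.45 against 0.03 over all genes. Of the p160 coactivators, NCOA1 did not pass the test (-0.09, adjusted p = 0.73). It is named for its family, after its values were seen. NCOA3 rose from 91.4 and 88.6 CPM in vehicle to 205.2 and 214.0 (1.22 ± 0.11 on the log2 scale, adjusted p = 1.2e-05), while NCOA2 (GRIP1) fell from 55.1 and 49.3 to 10.1 and 11.5 (-2.27 ± 0.16, adjusted p = 3.0e-06). The acetyltransferase CREBBP fell by 1.32 (adjusted p = 7.8e-04) and the corepressor NCOR1 by 1.10 (adjusted p = 3.3e-04). With EC359, 0 of the 16 were called by edgeR or DESeq2, beside 1.94% of all genes called higher and 1.72% lower by edgeR. At an unadjusted p under 0.05, 2 were higher and 1 lower. From vorinostat to the combination 0 were called by either tool, beside 3.37% of all genes higher and 0.876% lower by edgeR. At an unadjusted p under 0.05, 4 were higher and 4 lower. At such shares, 0 called in a list this short is not a result about the coregulators.

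Among 12 related receptors and enzymes of steroid metabolism, 6 had enough counts to test. With vorinostat 2 were called higher, beside 16.8% of all genes, and 0 lower by edgeR or DESeq2, beside 13.3%. At an unadjusted p under 0.05, 2 were lower. NR3C2, the mineralocorticoid receptor, which also binds cortisol, was at 1.79 and 1.03 CPM in vehicle and 1.11 and 0.76 with EC359. It reached 12.9 and 12.4 with vorinostat and 13.2 and 14.5 with the combination, a rise of 3.16 ± 0.26 on the log2 scale with vorinostat (adjusted p = 7.7e-06) and 3.29 ± 0.26 with the combination (adjusted p = 4.7e-06). HSD11B2, which inactivates cortisol, went from 0.52 and 0.65 CPM in vehicle to 2.31 and 2.38 with vorinostat (1.99 ± 0.47, adjusted p = 0.0045). That call was lost without either vehicle or vorinostat library (adjusted p = 0.020 to 0.040) or without combination replicate 1 (0.0101). HSD11B1, which regenerates cortisol, was near 0 in every library, at most 0.20. PGR was at most 0.05 CPM.

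Of 35 other genes known to be induced by glucocorticoids, 30 were tested. With EC359 6 were called higher, beside 1.94% of all genes, and 4 lower, beside 1.72%. With vorinostat the counts were 12 higher and 3 lower, beside 16.8% and 13.3%, with a median log2 change of 0.81 against 0.03 over all genes. With the combination 20 were higher and 2 lower, beside 19.5% and 15.3% of all genes, and the median was 1.75 against 0.07. From vorinostat to the combination 12 were higher and 0 lower by edgeR and by DESeq2, with 2 lower at an unadjusted p under 0.05, beside 3.37% and 0.876%, and the median was 0.85 against -0.01. The 10 called with EC359 became 6 without vehicle replicate 2 and 3 with only the 4 libraries compared. The 12 called from vorinostat to the combination became 7 without combination replicate 1 or vorinostat replicate 1, and 6 without vorinostat replicate 2. The counts of higher genes with vorinostat and with the combination include CDKN1C and RASD1. Both had few vehicle counts and were tested because of the vorinostat and combination libraries, where they are high. Genes of the list that are not named here were not checked for this. The listed genes have other inducers and were chosen with earlier results of these data known, so the counts are a description of the list.

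RGS2 rose from 3.35 and 3.27 CPM in vehicle to 56.7 and 56.5 with vorinostat (4.09 ± 0.16 on the log2 scale, adjusted p = 2.5e-07). The clock gene PER1, a direct target of the receptor, rose from 12.7 and 9.44 to 45.0 and 45.5 (2.03 ± 0.17, adjusted p = 8.5e-06) and read 58.1 and 60.1 with the combination. The cell cycle inhibitor gene CDKN1C rose from 0.09 and 0.65 to 2.98 and 3.19 with vorinostat, and RASD1, encoding a dexamethasone-induced Ras protein, from 0.14 and 0.42 to 2.21 and 1.87 and on to 11.6 and 12.9 with the combination. Both had few counts in vehicle (16 for CDKN1C and 12 for RASD1 over the group) and were tested because of the vorinostat and combination libraries, where they are high. The fold of CDKN1C with vorinostat depends on the setting, from 2.22 to 4.94 on the log2 scale. The step of RASD1 from vorinostat to the combination, 2.58 ± 0.27 (adjusted p = 2.6e-04), missed the threshold without vorinostat replicate 2 (2.42, adjusted p = 0.0103). In the other direction, the log2 change with vorinostat was -1.94 in CEBPD (adjusted p = 1.8e-05), -1.76 in SDPR (5.1e-06) and -1.23 in ZFP36L2 (1.1e-05). ZBTB16, which in many tissues is strongly induced by glucocorticoids, was at 0 in all but 1 library, where it was at 0.05.

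ANGPTL4, an inhibitor of lipoprotein lipase, rose with each drug, from 21.1 and 22.5 CPM in vehicle to 240.3 and 314.6 with EC359, 149.8 and 156.1 with vorinostat, and 1522 and 1434 with the combination. The metallothionein gene MT2A rose with EC359 by 1.88 ± 0.24 on the log2 scale (adjusted p = 9.0e-04), though its libraries differed there, at 1447 and 816. That call was lost without vehicle replicate 2 (1.74) and with only the 4 libraries compared (1.90, adjusted p = 0.018). CRISPLD2 went the other way with EC359, from 45.3 and 51.3 to 3.46 and 2.59 (-3.98 ± 0.15, adjusted p = 1.2e-06), but rose with vorinostat to 247.8 and 250.8 and read 202.3 and 217.5 with the combination. GADD45B fell with EC359 by 1.29 (adjusted p = 1.7e-04) and rose with vorinostat by 0.79 (adjusted p = 3.4e-04). Its EC359 call was lost with only the 4 libraries compared (-1.27, adjusted p = 0.015). CRISPLD2 and GADD45B differed in the EC359 effect between vehicle and vorinostat by the interaction test, by 3.73 (adjusted p = 2.3e-05) and 2.16 (adjusted p = 2.4e-04).

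**Figure D4:**
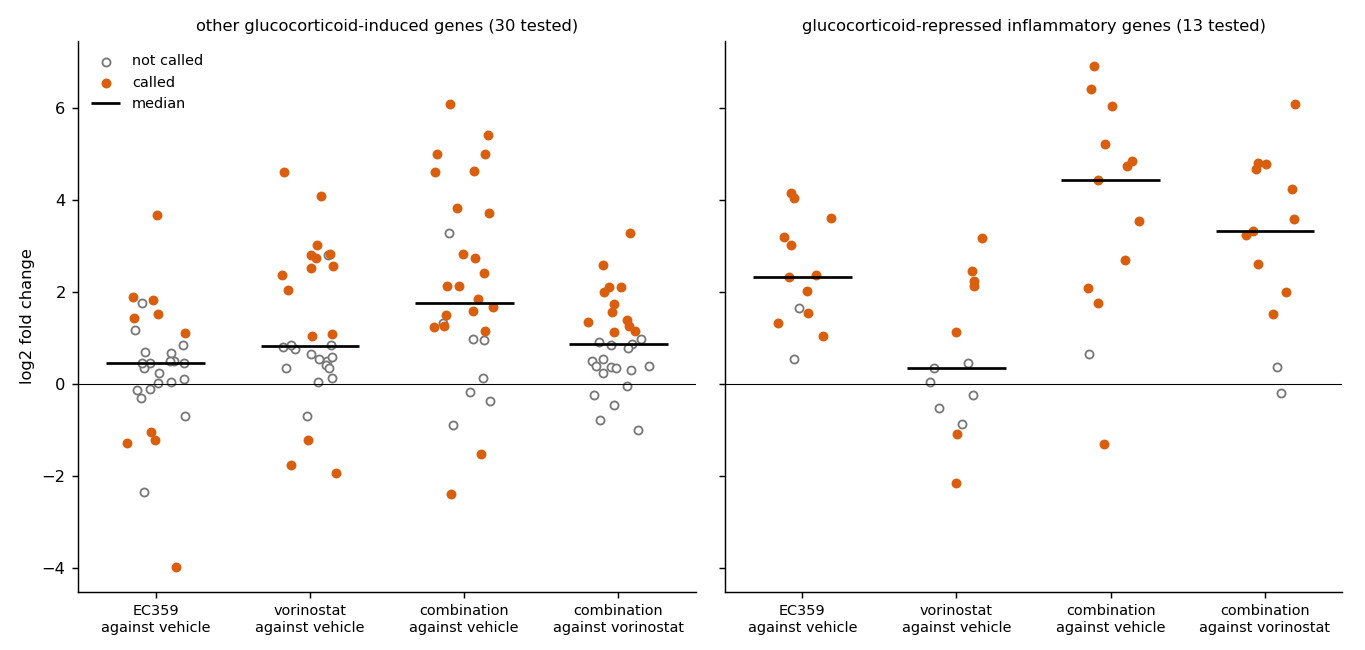
Log2 fold changes (vertical axis) of 30 other glucocorticoid-induced genes and 13 glucocorticoid-repressed inflammatory genes in 4 comparisons; each point is a gene, filled where called, and the line is the list's median. The repressed genes have a median of 2.32 for EC359, 0.34 for vorinostat and 4.44 for both drugs.

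Of 18 inflammatory genes that glucocorticoids are known to repress, 13 were tested, and 11 of them were called higher with EC359, beside 1.94% of all genes, and 0 lower by edgeR, by DESeq2 or at an unadjusted p under 0.05. Their median log2 change was 2.32 against -0.02 over all genes. With vorinostat 5 were called higher and 2 lower, beside 16.8% and 13.3%, with a median of 0.34. With the combination 11 were higher and 1 lower, beside 19.5% and 15.3% (median 4.44). From vorinostat to the combination 11 were higher, beside 3.37%, and 0 lower by the same 3 measures, beside 0.876% (median 3.32 against -0.01). The counts of higher genes against vehicle include PTGS2, which had few vehicle counts and was tested because of the treated libraries, where it is high. Genes of the list that are not named here were not checked for this. With only the 4 libraries compared, 7 were called with EC359. The list was chosen with earlier results of these data known, so the counts are a description of the list. Whether the receptor had a part in these changes was not tested. IL8 (CXCL8), the neutrophil chemokine, measured 38.2 and 37.8 CPM in vehicle, 338.6 and 361.8 with EC359, 38.5 and 39.8 with vorinostat, and 1137 and 1039 with the combination. The protease gene MMP3 followed the same order, from 1.32 and 2.06 to 30.9 and 29.6 with EC359, 1.90 and 2.34 with vorinostat and 146.5 and 144.8 with the combination.

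CXCL3, CXCL2 and PTGS2 rose with each drug alone and with both. The EC359 call of CXCL2 was lost without any 1 of the vehicle, vorinostat or combination libraries (0.84 to 1.28 on the log2 scale). It was also lost with total counts (1.03, adjusted p = 0.014), the replicate block (1.04, adjusted p = 0.01002) and only the 4 libraries compared (1.07, adjusted p = 0.086). The vorinostat call of PTGS2 was lost without either vehicle library or vorinostat replicate 1 (2.09 to 2.22). Its EC359 call was lost with only the 4 libraries compared (3.63, adjusted p = 0.013). PTGS2, encoding cyclooxygenase 2, went from 0.24 and 0.23 CPM in vehicle to 29.4 and 28.4 with the combination (6.91 on the log2 scale, adjusted p = 3.0e-07). It had 10 counts over the vehicle group and was tested because of the treated libraries, where it is high. CXCL3 went from 3.82 and 3.36 to 253.5 and 218.8 (6.04, adjusted p = 1.3e-08), and CXCL2 from 4.25 and 5.79 to 137.5 and 130.6 (4.74, adjusted p = 1.8e-07), though such close paralogs may share reads. LIF, the ligand of the receptor that EC359 inhibits, rose with EC359 from 25.3 and 21.2 to 118.6 and 114.4 (2.32 ± 0.12, adjusted p = 5.2e-06). It fell with vorinostat to 5.61 and 4.80 (-2.16 ± 0.13, adjusted p = 1.7e-06) and stood at 95.9 and 100.8 with the combination. PLAU, encoding urokinase, rose with EC359 to 227.5 and 249.4 from 57.1 and 60.7, but read 25.9 and 29.1 with vorinostat and 22.8 and 25.0 with the combination.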

How the data were processed

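Total RNA of BT-549 cells was the input to Illumina TruSeq RNA library preparation and was sequenced with 50-base single reads. The authors aligned reads to hg19 with TopHat2 2.0.8b. HTSeq gave the deposited raw counts, 1 per RefSeq gene and library. The HTSeq version and strand setting are not given in the sources used here. Samples were grouped by their labels into 4 groups of 2. Counts were filtered by filterByExpr (13694 genes kept), scaled by TMM and tested with edgeR 4.0.16 (R 4.3.3) in a quasi-likelihood model of all 8 libraries, with 6 pairwise contrasts and an interaction, Benjamini-Hochberg adjustment over all tested genes, and the study's thresholds (adjusted p under 0.01, log2 fold change above 1 or below -1). Standard errors were derived from the F statistic. On counts simulated for vorinostat against vehicle over 13694 genes, 200 of 200 changed genes were recovered and 1 other gene was called. For the interaction, 198 of 200 were recovered and 3 other genes were called. The changed genes were drawn from those above a minimum mean count, and all changed by the same log2 size. The same dispersion (0.0135) was used for every gene and group, which makes recovery easier than in the real data. Recovery at the members' own fold changes and counts, or under the unequal spread of the real groups, was not tested. At 19069450 to 24759041 counts per library, a floor of 3 counts was used; floors cover counting error only.

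The members and lists were chosen with earlier results of these data known, the lists from general knowledge. Named genes were all members, the genes HSP90AA1, HSP90AB1, FKBP4, NR3C2, PGR, PER1, ZBTB16, HSD11B1 and HSD11B2 (1 further gene named by the rule is not reported here), and, of called genes with an average log2 CPM of at least 1, the up to 3 with the largest change each way per list with vorinostat, and up to 2 each way with EC359 and from vorinostat to the combination. Patterns were compared for genes with an average log2 CPM of at least 3. Gene coordinates are from GENCODE on GRCh37 and promoters from RefSeq on GRCh38.p14; they were not converted. Alternatives were RLE scaling, total counts, DESeq2 1.42.0, 2 other filters, 2 other thresholds, a replicate block, only the 4 libraries compared, and each library left out.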

Additional observations from a re-analysis of the deposited data

Results flagged for a closer look

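SGK1 was flagged because the effect of EC359 on it differed between cells without and with vorinostat. The pattern is not particular to SGK1. The log2 changes against vehicle with EC359, vorinostat and the combination were -0.03, 2.14 and 3.29 in SNAPC1. In BAIAP2 they were 0.15, 2.23 and 3.24. Of all tested genes, 1.62% passed above the sum of the drugs. Without vorinostat its values were 168 and 161 CPM in vehicle and 192 and 175 with EC359. With vorinostat they were 730 and 735 alone and 1589 and 1540 with EC359 added. The difference between these effects was 0.94 ± 0.11 on the log2 scale (SE, edgeR quasi-likelihood interaction test, adjusted p = 0.0021), and both combination libraries lay above both vorinostat libraries. The call was lost when either vehicle, vorinostat or combination library was left out, with differences from 0.86 to 0.97. Groups of 2 are too small to look for a single library far from the others.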

How the results depend on the processing

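No fold change of the 6 members other than FKBP5 reversed its direction in any alternative. For FKBP5 no fold was fitted, and its combination libraries (0.15 and 1.07 CPM) lie on either side of the vorinostat ones (0.62 and 0.51). Of 666 recomputed fold changes of these members, 627 kept both direction and side of the adjusted p threshold, 25 lost and 14 gained significance. Members called from vorinostat to the combination were 1 with and 5 without the fold limit. Members passing the interaction were 2 at an adjusted p under 0.05 and 2 with DESeq2, SGK1 and TSC22D3 (TSC22D3 adjusted p = 0.0086 in DESeq2). Leaving out each library in turn gave 1 to 1 members called for EC359, 4 to 5 for vorinostat, 4 to 6 for the combination, 1 to 1 for combination against vorinostat, 5 to 6 against EC359, 4 to 4 for vorinostat against EC359 and 0 to 2 for the interaction. With a lone library in a group, it is assumed to vary like the other groups. Deviations of libraries with the same replicate number were weakly correlated between groups (-0.17 to 0.23). With 2 libraries a group, this cannot decide whether libraries shared a batch. With the replicate block, the counts of members called were 1, 4, 5, 1, 5, 4 and 1, as without it, and KLF9 missed the threshold from vorinostat to the combination (adjusted p = 0.0103). With the combination's numbers crossed, an alternative added after seeing the data, they were 1, 5, 6, 1, 5, 4 and 1. Scaling by total counts moved the median of all genes by at most 0.088 on the log2 scale, and with it KLF9 missed the threshold there too (adjusted p = 0.0115). NR3C1 fell with vorinostat past the threshold when only those 4 libraries were fitted (-0.26, adjusted p = 8.2e-04) and without either EC359 library (-0.28 in both, adjusted p = 0.0011). The causes of these shifts were not tested. With 2 libraries a group, a change in FKBP5 is limited by its few counts.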
